A study of Mus musculus with 12 samples.

Results

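The comparison described here set regulatory T cells from mice that lack Atg5 in their dendritic cells (TG) against the same cells from littermate controls (WT), in the gate of CD4+ CD62L+ cells with low surface CD25. It used 6 of the 12 samples of the series, 3 TG and 3 WT, chosen by their labels and joined by replicate number, and every gene with enough counts. All mice were C57BL/6 and carried Atg5 flox/flox alleles. The TG mice were CD11c Cre +/- and the WT mice CD11c Cre -/-, so the controls also carried the floxed alleles but no recombinase. Cre was driven by CD11c, a gene that is used by dendritic cells and also by some macrophages and activated lymphocytes, so the deletion was aimed at cells other than the T cells sequenced. Cells were pooled from spleen and the inguinal, cervical and brachial lymph nodes, enriched for CD4 and sorted by flow cytometry. The labels give neither age nor sex, and do not say whether a replicate was 1 mouse, a pool of mice or a sorting day. The p-values below therefore measure only the spread between these samples.

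Regulatory T cells restrain other immune cells and are defined by the transcription factor Foxp3. Most of them display CD25, the alpha chain of the interleukin-2 receptor encoded by Il2ra, and depend on interleukin-2 made by other T cells. Dendritic cells display antigen and costimulatory ligands to them. Atg5 is needed to build the autophagosome membrane, and autophagy in dendritic cells degrades cytoplasmic contents and can feed antigen into the MHC class II pathway. The question the design poses is whether loss of this pathway in dendritic cells is accompanied by a different transcriptome in the T cells that meet them.

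The 6 libraries held between 18678438 and 20236348 counted reads. Libraries with the same replicate number resembled each other across genotypes. The median absolute log2 difference between 2 CD25 Low libraries, over genes averaging 10 CPM or more (CPM is the count relative to the library total), was 0.091 to 0.126 for the 3 pairs with the same number and different genotype. It was 0.143 to 0.223 for the 6 pairs with the same genotype and different numbers. The deviations from the group means correlated at 0.497 to 0.83 in the 3 same-numbered WT and TG Low pairs, against -0.688 to 0.037 in the 6 pairs with different numbers. The 3 deviations within a group cancel out, so the low values for different numbers partly follow from the high ones for the same number. Each TG library was therefore compared with the WT library of the same number, and levels are given below in that order, replicates 1, 2 and 3. Levels are in CPM after scaling by the trimmed mean of M values (TMM).

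The genes that define the sorted population were present in all 6 libraries at like levels in both genotypes. Foxp3 stood at 983, 1185 and 1090 CPM in WT and at 1130, 1098 and 1193 CPM in TG. Its log2 difference, TG minus WT, was 0.07 with a 95% interval of -0.10 to 0.24. Il2ra stood at 481, 553 and 734 CPM in WT and at 510, 556 and 715 CPM in TG, a log2 difference of 0.01 with an interval of -0.18 to 0.20. In both genotypes the libraries numbered 1 were lowest for Il2ra and those numbered 3 highest, and the groups overlapped. The mean Il2ra level in WT was 589 ± 130 CPM (SD, n = 3) in the Low gate and 1190 ± 118 CPM (SD, n = 3) in the High gate.

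The checkpoint receptor gene Ctla4 and the costimulatory receptor gene Icos differed more between replicate numbers than between genotypes. Ctla4 gave 227, 132 and 177 CPM in WT and 279, 143 and 173 CPM in TG, a log2 difference of 0.13 with an interval of -0.09 to 0.36. Icos gave 214, 101 and 70.7 CPM in WT and 307, 119 and 70.9 CPM in TG, a log2 difference of 0.28 with an interval of -0.10 to 0.65. The third pair was nearly equal for Icos, and the first pair carried most of the difference. Atg5 itself gave 37.5, 36.4 and 37.1 CPM in WT and 36.5, 37.8 and 41.3 CPM in TG, a log2 difference of 0.06 with an interval of -0.14 to 0.25. These T cells are not the cells in which the deletion was driven, so the value does not test the genotype labels. Itgax, which encodes CD11c, was at most 1.82 CPM in any of the 6 libraries and at 0 in 3 of them, so the deletion in dendritic cells could not be read from these data.

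**Figure D1:**
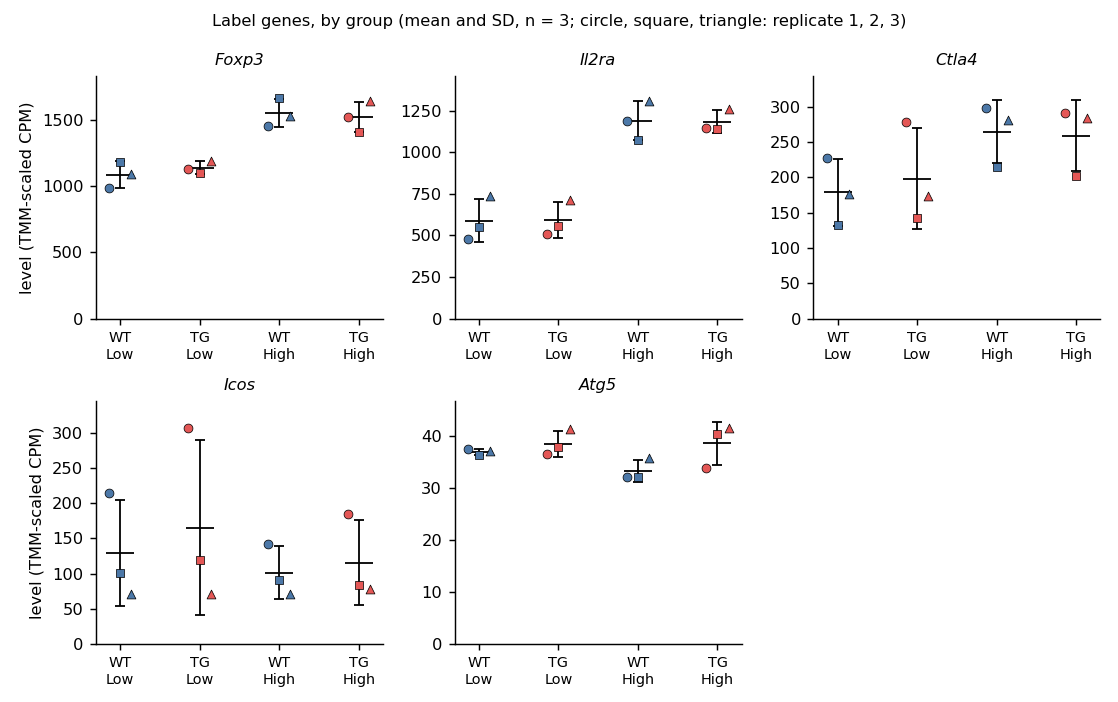
Levels of Foxp3, Il2ra, Ctla4, Icos and Atg5 in TMM-scaled CPM (vertical axes, from 0) in the 4 groups, WT blue and TG red, each symbol 1 library, with the mean and SD of 3. In the CD25 Low gate WT and TG overlapped for all 5 genes, and the libraries numbered 1 (circles) were highest for Icos in every group.

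Across all genes, no single gene separated the genotypes in the CD25 Low gate after adjustment for the number tested. Of 11766 genes tested with the quasi-likelihood test of edgeR and the replicate number as a block, 0 had a Benjamini-Hochberg adjusted p under 0.05, a background of 0%. At an unadjusted p under 0.05 there were 382 genes, 3.25% of those tested. Of these 242 were higher in TG (2.06% of genes tested) and 140 lower (1.19%). DESeq2 with the same block called 2 genes. Differences were small among the 8443 genes averaging 10 CPM or more, where the median standard error of a log2 difference was 0.0994. Only 32 of these genes had an absolute log2 difference over 0.5 and 2 had one over 1. Over all 11766 genes tested, those at lower levels included, 121 had an absolute log2 difference over 1. The median log2 difference over all genes tested was 0.0041.

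Directions are counted below over the 3 same-numbered pairs. TG was above WT in all 3 pairs for 12.7% of all genes tested and below WT in all 3 for 10.8%. The 3 TG libraries all lay above the 3 WT libraries for 1.58% of genes and all below for 1.72%. These shares are the background against which each group of genes is given. In bulk RNA of this kind, fewer cells of a type and less RNA per cell cannot be told apart.

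**Figure D2:**
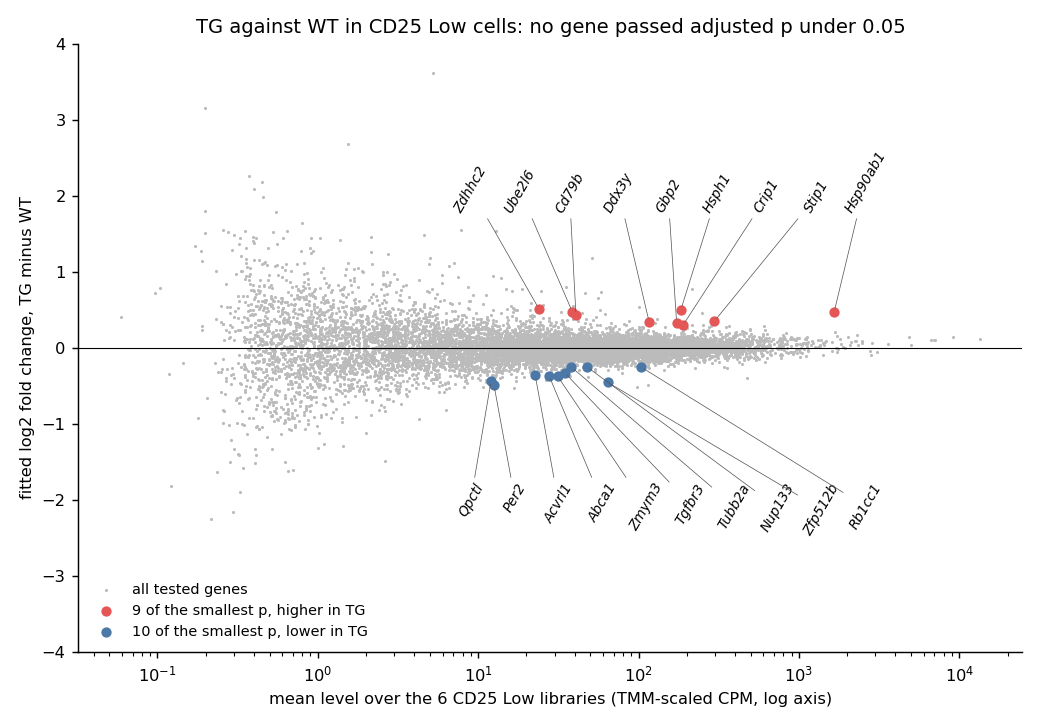
Fitted log2 fold change, TG minus WT in CD25 Low cells (vertical axis), against the mean level over the 6 libraries in TMM-scaled CPM (horizontal log axis) for the 11766 genes tested, with 9 genes of small p on the higher side and 10 on the lower side named. Hsp90ab1 lies at the right, among the highest levels, with a log2 difference of 0.47, and no gene passed an adjusted p under 0.05.

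Cytosolic chaperone genes held the smallest p-values among well-measured genes. Hsp90ab1, which encodes the constitutive cytosolic HSP90 beta chaperone, gave 1212, 1890 and 1031 CPM in WT and 1678, 2792 and 1347 CPM in TG. TG was above WT in every pair, although the groups overlapped because both libraries numbered 2 were high. The log2 difference was 0.47 ± 0.09 (SE from the fit of all 12 libraries, 3 per group), a 1.39-fold ratio. Its unadjusted p was 8.11e-05 and its edgeR adjusted p 0.477. The adjusted p fell under 0.05 in 4 of 24 other ways of fitting: 0.0063 with DESeq2, 0.0452 on the 6 Low libraries alone, 0.0404 without the 4 libraries numbered 2 and 0.0479 without the WT High library numbered 2. Over all 24 the adjusted p ran from 0.0063 to 1 and the log2 difference from 0.42 to 0.52.

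Genes for partners of HSP90 and HSP70 lay on the same side. Stip1, which links the HSP70 and HSP90 chaperones, gave 194, 420 and 167 CPM in WT and 273, 535 and 194 CPM in TG, a log2 difference of 0.35 (adjusted p = 0.991). Hsph1, an HSP110 exchange factor for HSP70, gave 97.7, 279 and 68.7 CPM in WT and 147, 423 and 85.0 CPM in TG, a log2 difference of 0.50 (adjusted p = 0.991 with edgeR, 0.0452 on the 6 Low libraries alone, and from 0.0452 to 1 over the other fits). Ahsa1, an activator of the HSP90 ATPase, gave 142, 213 and 136 CPM in WT and 195, 266 and 153 CPM in TG, a log2 difference of 0.31 (adjusted p = 1). For all 3 genes TG was above WT in each pair, and the libraries numbered 2 were highest in both genotypes. The stress-inducible HSP70 genes Hspa1a and Hspa1b are near-identical copies, so reads may be split between them uncertainly. Hspa1a gave 8.88, 3.05 and 10.1 CPM in WT and 13.3, 22.01 and 19.97 CPM in TG, with no overlap, a log2 difference of 1.53 and an unadjusted p of 0.0635. Both were named after their values were seen. Values are given for Hspa1a alone, so its difference should not be read as that of the 2 copies together.

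The heat shock list as a whole had 30 tested members, of which 27 had a positive log2 difference, with a median of 0.28. TG was above WT in all 3 pairs for 13 of them (43.3%) and below in all 3 for 0. Of the 30, 7 had an unadjusted p under 0.05, all higher in TG, and 0 passed the adjusted threshold. The list median differed between pairs, at 0.25 in pair 1, 0.43 in pair 2 and -0.01 in pair 3. Without the 4 libraries numbered 2 the median was 0.10, with 22 of 30 positive, and it was 0.11 without the WT Low library numbered 2 alone. The third pair thus showed the difference for Hsp90ab1, Stip1, Hsph1 and Ahsa1 but not for the median member of the list.

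Promoters of a few of these genes are shown because heat shock factors bind inverted repeats of a short core, and chaperone genes often carry them. The windows are RefSeq sequence of GRCm38.p6, from 250 bases before to 50 after a start site, read 5′ to 3′ on the gene's strand. The genes were chosen after their values were seen. Capitals mark every match to the core GAANNTTC or TTCNNGAA, searched on both strands, where matches may overlap. One of these is found in 15.1% of all 32851 windows of the same length. The Hsph1 window is chr5:149636287-149636586, minus strand, at the more upstream of its 2 listed start sites, and the Stip1 window is chr19:7039977-7040276, minus strand.
Hsph1: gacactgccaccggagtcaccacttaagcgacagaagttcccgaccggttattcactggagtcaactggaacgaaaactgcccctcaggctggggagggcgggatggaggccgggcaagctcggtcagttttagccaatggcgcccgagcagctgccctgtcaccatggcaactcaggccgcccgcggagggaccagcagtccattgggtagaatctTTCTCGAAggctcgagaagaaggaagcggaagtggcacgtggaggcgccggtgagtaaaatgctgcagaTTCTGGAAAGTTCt
Stip1: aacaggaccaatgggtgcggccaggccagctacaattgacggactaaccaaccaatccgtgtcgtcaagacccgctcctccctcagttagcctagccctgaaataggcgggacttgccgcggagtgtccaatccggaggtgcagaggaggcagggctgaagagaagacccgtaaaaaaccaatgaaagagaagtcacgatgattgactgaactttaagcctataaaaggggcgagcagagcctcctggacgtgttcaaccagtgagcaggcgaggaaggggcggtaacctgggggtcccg
The Hsph1 window held 3 matches, starting at positions -33, 37 and 42 from the start site, the last 2 overlapping. The Stip1 window held 0, which says only that these letters are not in it.

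**Figure D3:**
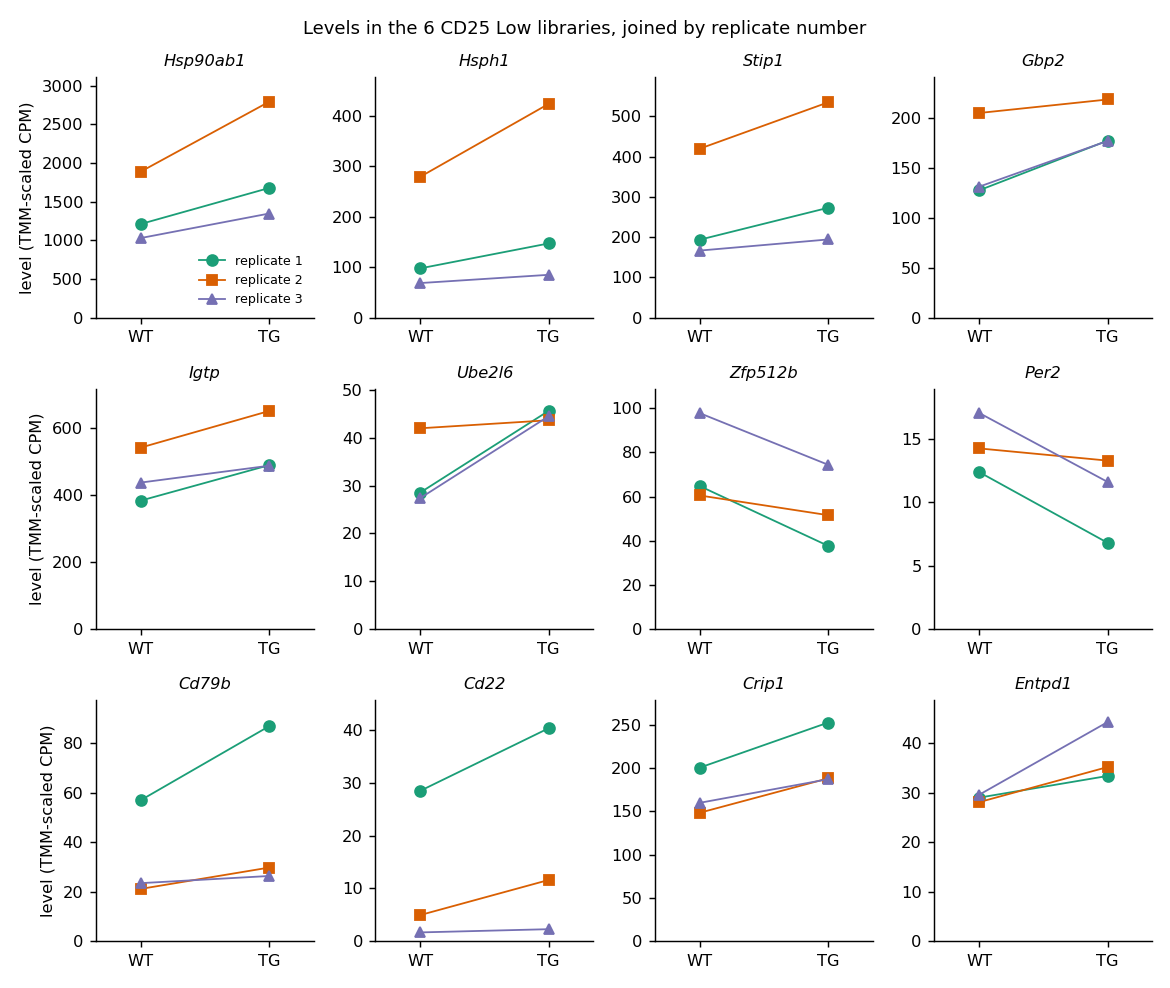
Levels in TMM-scaled CPM (vertical axes, from 0) of 12 genes in the 6 CD25 Low libraries, WT at left and TG at right, with lines joining libraries of the same replicate number. All lines slope upward for Hsp90ab1, Hsph1, Stip1, Gbp2, Igtp, Ube2l6, Cd79b, Cd22, Crip1 and Entpd1 and downward for Zfp512b and Per2, while the spread between replicate numbers often exceeds the slope.

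Interferon-inducible genes formed the next group. Gbp2, a guanylate-binding protein of cell-autonomous defence, gave 128, 205 and 131 CPM in WT and 177, 219 and 177 CPM in TG. Its log2 difference was 0.33 ± 0.08 (SE), with an edgeR adjusted p of 0.991. Igtp, an immunity-related GTPase, gave 384, 542 and 438 CPM in WT and 490, 652 and 488 CPM in TG, a log2 difference of 0.26. TG was above WT in each pair for both genes, and for Gbp2 the second pair differed least. Irgm1, a regulatory GTPase of the same family, gave 224, 270 and 236 CPM in WT and 286, 297 and 271 CPM in TG, without overlap, and its log2 difference was 0.23. Iigp1, another GTPase of the family, gave 101, 111 and 85.0 CPM in WT and 124, 154 and 105 CPM in TG, a log2 difference of 0.36. Ube2l6, the conjugating enzyme for the ubiquitin-like protein ISG15, is not on the list counted below and gave 28.5, 42.0 and 27.4 CPM in WT and 45.6, 43.6 and 44.5 CPM in TG. The TG values of Ube2l6 were closely grouped and all above the WT values, with a log2 difference of 0.48 ± 0.12 (SE) and an edgeR adjusted p of 0.991.

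Of 51 tested interferon-stimulated genes, 48 had a positive log2 difference, with a median of 0.16, and 0 passed the adjusted threshold. TG was above WT in all 3 pairs for 16 (31.4%) and below in all 3 for 0, and 10 had an unadjusted p under 0.05, all higher in TG. The list median was 0.22 in pair 1 and 0.29 in pair 3 but -0.04 in pair 2. Without the 4 libraries numbered 1 the median was 0.09 with 47 of 51 positive, without those numbered 3 it was 0.07 with 36 of 52 positive, and without those numbered 2 it was 0.25 with 50 of 52 positive. The last was the fit in which most genes were called, 6 in all, each higher in TG: Hsp90ab1, Bst2, Isg15, Ifi27l2a, S100a4 and Acot7. Isg15, a ubiquitin-like protein, shows what leaving out number 2 does, and was named after its values were seen. It gave 40.5, 48.7 and 27.5 CPM in WT and 62.7, 31.1 and 45.9 CPM in TG, so the second pair went the other way. Its log2 difference was 0.25 (adjusted p = 1) with all libraries and 0.68 (edgeR adjusted p = 0.0404) without those numbered 2. The gene with the smallest p of all was a predicted gene, Gm4951, also named after its values were seen. It gave 1.85, 4.42 and 1.17 CPM in WT and 4.35, 11.01 and 4.87 CPM in TG, a log2 difference of 1.49 with an edgeR adjusted p of 0.141.

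Promoter windows of Gbp2 and Igtp are shown because interferon-activated factors bind short cores near such genes. They are RefSeq sequence of GRCm38.p6 over the same span around the start site, chr3:142620413-142620712 for Gbp2 and chr11:58199306-58199605 for Igtp, both plus strand. Capitals mark the gamma-activated site core TTCNNNGAA, which reads alike on both strands and is found in 8.3% of all windows. The pair was chosen after the values were seen. A second search, for the core of the interferon-stimulated response element, was added after these windows had been read. It matched in both, on the other strand from position -59 in Gbp2 and from position -34 in Igtp, and 3.44% of all windows hold a match.
Gbp2: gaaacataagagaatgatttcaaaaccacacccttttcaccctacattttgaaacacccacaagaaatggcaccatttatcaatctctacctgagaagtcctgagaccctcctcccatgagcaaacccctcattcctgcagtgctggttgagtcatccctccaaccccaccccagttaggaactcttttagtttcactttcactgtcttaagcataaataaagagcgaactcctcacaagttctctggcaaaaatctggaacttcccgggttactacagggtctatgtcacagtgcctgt
Igtp: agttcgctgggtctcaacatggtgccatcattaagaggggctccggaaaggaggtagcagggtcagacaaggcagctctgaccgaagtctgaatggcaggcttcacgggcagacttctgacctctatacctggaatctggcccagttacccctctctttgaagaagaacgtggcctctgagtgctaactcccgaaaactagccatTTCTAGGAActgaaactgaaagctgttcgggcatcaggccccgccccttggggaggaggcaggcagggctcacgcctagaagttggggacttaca
The Igtp window held 1 match to TTCNNNGAA, starting at position -45, and the Gbp2 window held 0, which says only that these letters are not in it.

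Treg signature genes other than Foxp3 and Il2ra lay mostly on the TG side. Entpd1, which encodes the ectonucleotidase CD39, gave 29.0, 28.1 and 29.6 CPM in WT and 33.4, 35.2 and 44.3 CPM in TG. The groups did not overlap, and the log2 difference was 0.37 ± 0.11 (SE) with an edgeR adjusted p of 1. Capg, an actin-capping protein, gave 349, 333 and 272 CPM in WT and 482, 344 and 340 CPM in TG, a log2 difference of 0.28. Itgae, the integrin chain CD103, gave 83.1, 37.8 and 19.5 CPM in WT and 113, 42.6 and 30.5 CPM in TG, a log2 difference of 0.41. Nrp1, a surface receptor of thymus-derived Tregs, had a log2 difference of 0.22 and was above WT in all 3 pairs. Capg and Itgae were highest in the libraries numbered 1 of both genotypes. In the core Treg list 22 of 24 tested members had a positive log2 difference, with a median of 0.14, and TG was above WT in all 3 pairs for 10 of them (41.7%). At an unadjusted p under 0.05, 7 were higher and 0 lower, and 0 passed the adjusted threshold. Without the 4 libraries numbered 1 the median was 0.06, with 17 of 23 positive, and it was 0.07 without the TG Low library numbered 1 alone.

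Genes of activated or effector Tregs were positive without exception but modest in size. All 41 tested members had a positive log2 difference, with a median of 0.23, and TG was above WT in all 3 pairs for 15 (36.6%). At an unadjusted p under 0.05, 6 were higher and 0 lower, and 0 passed the adjusted threshold. Scaling by library totals alone left 38 of the 41 positive. Crip1, a LIM domain protein, gave 201, 148 and 160 CPM in WT and 253, 188 and 187 CPM in TG, a log2 difference of 0.30 ± 0.08 (SE, edgeR adjusted p = 1). Lgals1, the secreted lectin galectin-1, gave 251, 179 and 115 CPM in WT and 328, 192 and 144 CPM in TG, a log2 difference of 0.27. Both genes were highest in the libraries numbered 1. S100a4, a calcium-binding protein of memory and effector T cells, gave 60.7, 32.9 and 0.929 CPM in WT and 145, 35.6 and 2.17 CPM in TG, so its level moved more with replicate number than with genotype. The list median was 0.45 in pair 1, 0.01 in pair 2 and 0.20 in pair 3. Without the 4 libraries numbered 1 it was 0.09, with 29 of 40 positive, and it was 0.06 without the TG Low library numbered 1 alone.

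Genes of naive or resting T cells lay slightly to the other side. Of 22 tested, 18 had a negative log2 difference, with a median of -0.07, 0 had an unadjusted p under 0.05 and TG was below WT in all 3 pairs for 4 (18.2%). Bach2, a repressor that keeps T cells quiescent, gave 108, 153 and 181 CPM in WT and 99.1, 145 and 141 CPM in TG, a log2 difference of -0.20. Satb1, a chromatin organiser, gave 661, 920 and 851 CPM in WT and 603, 797 and 829 CPM in TG, a log2 difference of -0.13. Without the libraries numbered 1 the list median was -0.01, with 12 of 22 negative. Among 17 conventional CD4 T cell genes, Themis, a T cell receptor signalling protein, gave 83.8, 84.4 and 90.6 CPM in WT and 64.3, 82.2 and 70.6 CPM in TG, without overlap and with a log2 difference of -0.26. It was the only member of that list with an unadjusted p under 0.05.

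B cell transcripts were present in the sorted libraries, and their sum was higher in TG in each pair. Summed over 20 B cell genes, CPM without scaling was 1768, 688 and 500 in WT and 2356, 866 and 580 in TG. Cd79b, a signalling chain of the B cell receptor, gave 57.0, 21.1 and 23.4 CPM in WT and 86.9, 29.7 and 26.3 CPM in TG, a log2 difference of 0.43 ± 0.11 (SE, edgeR adjusted p = 0.991). Cd22, a B cell surface lectin, gave 28.5, 4.91 and 1.61 CPM in WT and 40.4, 11.6 and 2.23 CPM in TG, a log2 difference of 0.77. The spread between replicate numbers was far wider than between genotypes for both genes. All 20 members had a positive log2 difference, with a median of 0.68, and TG was above WT in all 3 pairs for 10 (50%). Of the 20, 9 had an unadjusted p under 0.05, all higher in TG, and 0 passed the adjusted threshold. Pair medians were 0.46, 1.36 and 0.10, and without the 4 libraries numbered 2 the median was 0.37 with 18 of 20 positive. The B cell list includes MHC class II genes such as H2-Aa and Cd74, which dendritic cells also use.

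Myeloid markers followed replicate number as well, while the sum of gamma delta T cell genes was higher in TG in each pair. Summed over 23 myeloid or dendritic genes, CPM was 281, 135 and 114 in WT and 390, 121 and 123 in TG, and the median log2 difference of those tested was -0.15 without the libraries numbered 1 and 0.45 without those numbered 2. The macrophage genes Csf1r and Lyz2 had nearly all of their Low-gate counts in the libraries numbered 1: Csf1r gave 16.1 and 21.5 CPM in WT and TG number 1 and at most 0.494 CPM in the other 4. Lyz2 gave 5.72 CPM in WT number 1 and 39.8 in TG number 1 and at most 0.939 elsewhere. CD8 T and NK cell genes summed to 202 to 253 CPM in WT and 215 to 257 in TG, over 16 genes. Ctsw, at 114 to 185 CPM, made up much of this sum, so it says little about NK cells. The NK receptor genes were low and mixed. Ncr1 gave 8.69, 2.30 and 0 CPM in WT and 4.67, 0.396 and 0 CPM in TG. Klrb1c gave 2.86, 1.39 and 0.0494 CPM in WT and 3.63, 0.346 and 0.052 CPM in TG. Of 13 list members tested, 7 were positive and 6 negative, and 1 had an unadjusted p under 0.05, lower in TG. Neutrophil genes summed to at most 0.424 CPM over 8 genes, with 3 of them at 0 in all 6 libraries. Gamma delta T cell genes summed to 13.9, 12.3 and 15.4 CPM in WT and to 21.7, 15.3 and 19.1 CPM in TG, over 5 genes. Nearly all of this sum came from 3 constant segments of the gamma chain. The others, Trdv4 and Sox13, were at most 0.148 CPM in these 6 libraries, too few reads to give a direction. Of the 5 genes only the 3 constant segments were tested. Their median log2 difference was 0.42, and all 3 were above WT in each pair. That median was 0.25 without the TG Low library numbered 1. Tcrg-C4, a constant segment of the gamma chain, gave 3.13, 3.76 and 4.65 CPM in WT and 8.04, 4.90 and 6.57 CPM in TG, without overlap, a log2 difference of 0.78 (unadjusted p = 0.00641, edgeR adjusted p = 1). Tcrg-C1, another such segment, also did not overlap, with a log2 difference of 0.42. Levels were low, and the gamma constant segments resemble each other, so their counts are uncertain. The TG library numbered 1 thus held the highest B cell and myeloid sums, and its pair also had the highest medians of the effector and core Treg lists. The part of these other cells in those differences was not tested.

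**Figure D4:**
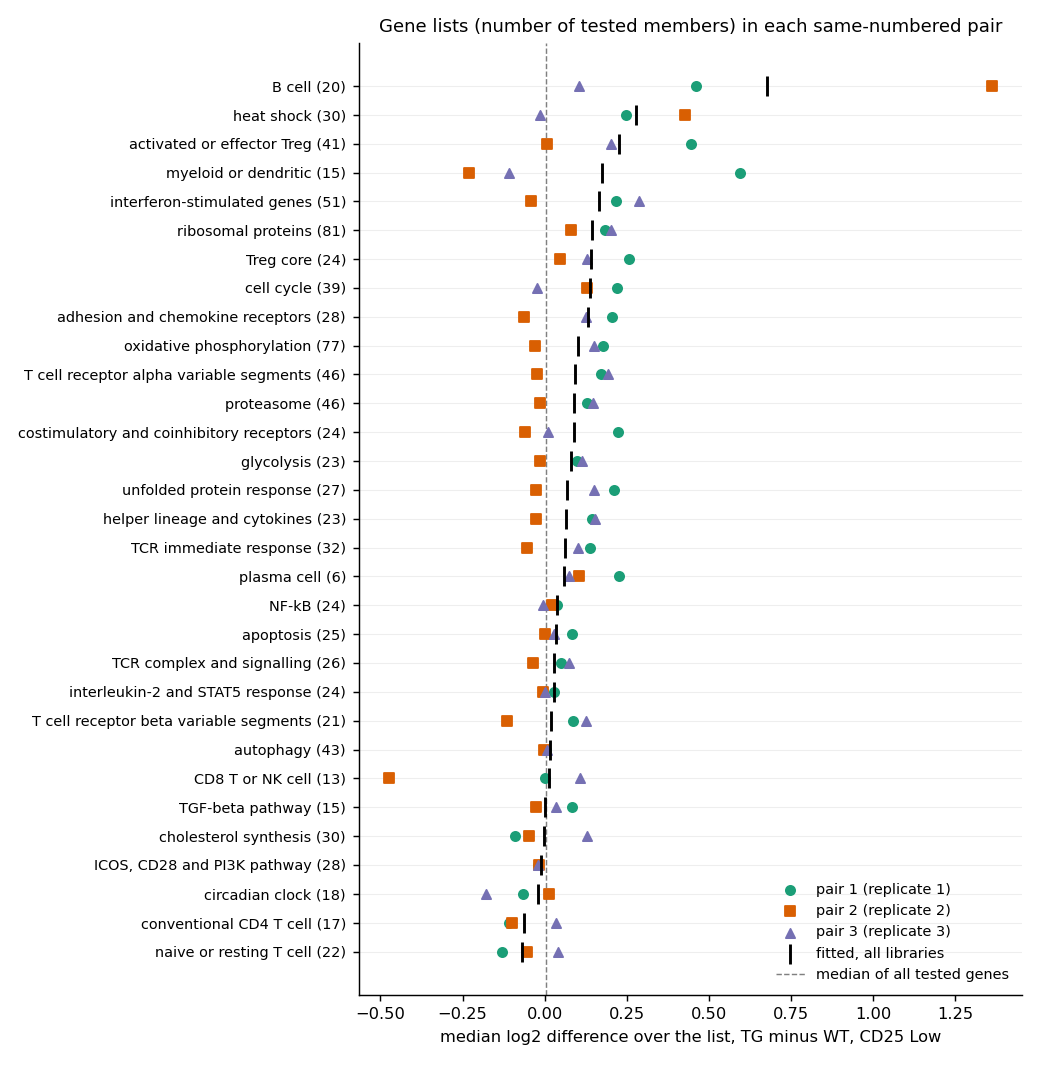
Median log2 difference, TG minus WT in CD25 Low (horizontal axis), of each gene list with at least 5 tested members (number in brackets), for each same-numbered pair (symbols) and for the fit over all libraries (bars). The dashed line is the median of all tested genes. The B cell list reached 1.36 in pair 2 and 0.10 in pair 3, and pair 2 was near or below 0 for the interferon and effector Treg lists.

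Housekeeping groups showed small differences shared by many members. Of 81 cytosolic ribosomal protein genes, 66 had a positive log2 difference, with a median of 0.14, and TG was above WT in all 3 pairs for 41 (50.6%). The groups did not overlap for 13 of them with TG above and 1 with TG below. The median ran from 0.09 without the WT Low library numbered 3 to 0.26 without the one numbered 2. Rpl13a, a protein of the large ribosomal subunit, gave 308, 259 and 330 CPM in WT and 359, 279 and 391 CPM in TG, a log2 difference of 0.19. Ribosomal protein genes have many processed pseudogene copies, so their counts are uncertain. Of 77 oxidative phosphorylation genes, 72 had a positive log2 difference, with a median of 0.10, and 5 had an unadjusted p under 0.05. Without the 4 libraries numbered 1 that median was 0.06 with 65 of 76 positive, and without those numbered 2 it was 0.16 with 72 of 77 positive. Uqcrh, a subunit of respiratory complex III, gave 124, 101 and 115 CPM in WT and 159, 105 and 136 CPM in TG, a log2 difference of 0.22. Of 46 proteasome genes, 39 were positive with a median of 0.09, and 0 had an unadjusted p under 0.05. That median was 0.05 without the libraries numbered 1 and 0.15 without those numbered 2. Of 27 unfolded protein response genes, 20 were positive with a median of 0.07, and 6 had an unadjusted p under 0.05, all higher in TG. That median was 0.11 without the libraries numbered 2 and 0.16 without the WT Low library numbered 2 alone. Hsp90b1, the HSP90 chaperone of the endoplasmic reticulum, gave 453, 520 and 348 CPM in WT and 544, 544 and 416 CPM in TG, a log2 difference of 0.20. For each of these 4 lists the median was smallest in pair 2. Of 46 T cell receptor alpha variable segments, 33 were positive with a median of 0.09, and TG was above WT in all 3 pairs for 13 (28.3%). The groups did not overlap for 8 of them with TG above and 0 with TG below, and 2 had an unadjusted p under 0.05. That median was 0.04 without the libraries numbered 3 and 0.21 without those numbered 2. Some of these segments are near-identical copies, so their counts are uncertain.

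Autophagy genes of the T cells showed no common direction. Of 43 tested, 24 had a positive and 19 a negative log2 difference, with a median of 0.02, and TG was above in all 3 pairs for 7 and below in all 3 for 7. Rb1cc1, which encodes FIP200, a subunit of the kinase complex that starts autophagosome formation, gave 96.7, 122 and 120 CPM in WT and 88.3, 103 and 92.4 CPM in TG. Its log2 difference was -0.25 ± 0.08 (SE), with an edgeR adjusted p of 1. Nbr1, a receptor for selective autophagy, gave 123, 159 and 140 CPM in WT and 110, 136 and 122 CPM in TG, a log2 difference of -0.20. Both were below WT in every pair and overlapped between groups. Sqstm1, which encodes the cargo receptor p62, had a log2 difference of 0.11.

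The other genes with the smallest p on the lower side had no list in common. Zfp512b, a zinc finger protein, gave 64.7, 60.5 and 97.7 CPM in WT and 37.7, 51.6 and 74.4 CPM in TG, a log2 difference of -0.45 ± 0.11 (SE, edgeR adjusted p = 0.991). Per2, a repressor in the circadian clock, gave 12.4, 14.2 and 17.0 CPM in WT and 6.81, 13.3 and 11.6 CPM in TG, a log2 difference of -0.49. Per1, its paralog, gave 32.0, 30.6 and 29.6 CPM in WT and 26.1, 26.2 and 27.0 CPM in TG, without overlap, although its unadjusted p was 0.122. The clock list as a whole had a median of -0.02 over 18 tested members, which changed sign in fits with single libraries left out. Abca1, the cholesterol efflux transporter, gave 31.3, 33.5 and 28.5 CPM in WT and 24.3, 24.9 and 23.3 CPM in TG, without overlap and with a log2 difference of -0.36. Acvrl1, a receptor of the TGF-beta superfamily, gave 21.7, 30.7 and 24.1 CPM in WT and 16.8, 21.6 and 21.1 CPM in TG, also without overlap, and its log2 difference was -0.36. Tgfbr3, the TGF-beta coreceptor betaglycan, had a log2 difference of -0.33. Nup133, a nuclear pore protein, gave 52.3, 49.97 and 53.3 CPM in WT and 42.3, 43.1 and 45.6 CPM in TG, without overlap and with a log2 difference of -0.25. The 3 remaining genes were Zmym3, Tubb2a and Qpctl, with log2 differences of -0.37, -0.25 and -0.43. All 10 were below WT in all 3 pairs, as the rule for naming them required.

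Zdhhc2 and Ddx3y, also among the smallest p on the higher side, belonged to no group described above. Zdhhc2, a palmitoyltransferase, gave 34.1, 15.2 and 7.63 CPM in WT and 58.2, 17.8 and 10.8 CPM in TG, a log2 difference of 0.51 (edgeR adjusted p = 1). Ddx3y, a Y-linked RNA helicase, gave 39.5, 176 and 96.2 CPM in WT and 51.0, 206 and 130 CPM in TG, a log2 difference of 0.34. The libraries numbered 1 were lowest for Ddx3y in both genotypes. The other Y-linked genes, Uty, Eif2s3y and Kdm5d, had log2 differences of 0.30, 0.29 and 0.28 and unadjusted p-values of 0.185, 0.254 and 0.355. Most of this came from the third pair: the median over the 4 Y-linked genes was 0.09 in pair 1, 0.10 in pair 2 and 0.73 in pair 3. Without the 4 libraries numbered 3 the fitted median was 0.07. Eif2s3y gave 36.1, 90.8 and 61.0 CPM in WT and 35.1, 91.7 and 111 CPM in TG. The sex makeup of the samples is not given in the labels and its part in these values was not tested.

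Several pathways with a direct link to the study's theme had medians near that of all genes. The interleukin-2 and STAT5 response list had a median log2 difference of 0.03 over 24 tested genes. Il2rg, the common gamma chain of the interleukin-2 receptor, gave 1702, 1801 and 1727 CPM in WT and 1861, 1820 and 1984 CPM in TG, a log2 difference of 0.12. The ICOS, CD28 and PI3K pathway list had a median of -0.01 over 28 genes, with 14 positive and 14 negative. T cell receptor complex and signalling genes had a median of 0.03 over 26 genes, NF-kB genes 0.04 over 24, apoptosis genes 0.03 over 25 and cholesterol synthesis genes 0.00 over 30. Among these 6 lists the median changed sign in at least 1 fit with libraries left out for all but NF-kB. The T cell receptor beta variable segments had a median of 0.02 over 21, which also changed sign with libraries left out. A p that misses the threshold does not show that these genes were equal: the median standard error of a log2 difference over all genes tested was 0.1159.

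The same genotype comparison in the CD25 High gate gave like values for some of these genes and smaller ones for others. There, too, 0 genes passed the adjusted threshold with edgeR, and 418 had an unadjusted p under 0.05. The TG High library numbered 2 held only 6767828 counted reads, against 18161830 to 23942479 in the other High libraries. Its levels are therefore less certain, also where the 2 gates are compared. Hsp90ab1 had a log2 difference of 0.45 in the High gate, Hsph1 0.53, Stip1 0.33, Gbp2 0.24 and Cd79b 0.38. Other genes lay nearer 0 in the High gate than in the Low gate: Abca1 at -0.07, Nup133 at -0.03, Nbr1 at -0.03, Themis at -0.05, Per1 at -0.03, Rb1cc1 at -0.10 and Capg at 0.08. For none of these 7 did the difference between gates have an unadjusted p under 0.05, the smallest being 0.0918 for Nup133. Low and High libraries with the same number may come from the same animals, so the High gate is not independent of the Low gate. List medians in the High gate were 0.27 for heat shock, 0.77 for B cells, 0.12 for interferon-stimulated genes, 0.19 for effector Tregs and 0.16 for ribosomal proteins. The core Treg list had a median of 0.03 there, with 14 of 24 positive, against 0.14 and 22 of 24 in the Low gate. For 0 of its 24 members did the difference between gates have an unadjusted p under 0.05.

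**Figure D5:**
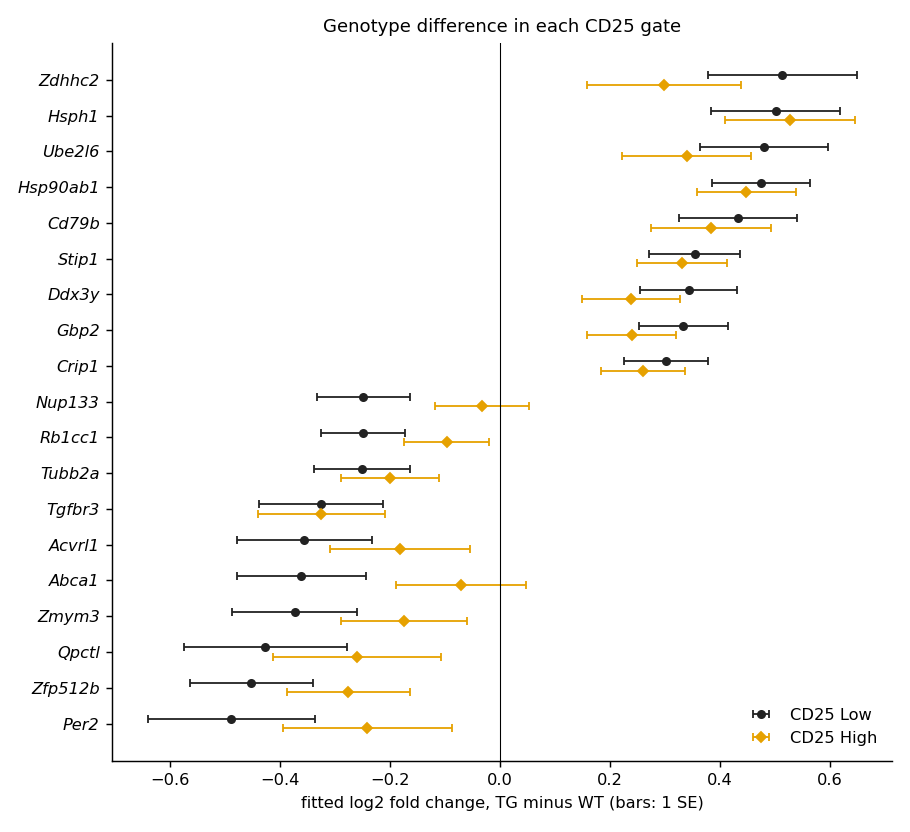
Fitted log2 fold change, TG minus WT (horizontal axis, bars 1 SE), in the CD25 Low gate (circles) and the CD25 High gate (diamonds) for 19 genes among the smallest p in the Low gate, which were chosen on the Low values. All 19 have the same sign in both gates, with values nearer 0 in the High gate for Abca1 and Nup133.

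The difference of the genotype effects, Low minus High, was tested in the same model, and 0 of 11766 genes passed the adjusted threshold. At an unadjusted p under 0.05 there were 118 genes, 1% of those tested, and DESeq2 called 0. The smallest p belonged to Sap130, a subunit of the Sin3 histone deacetylase complex. Sap130 gave 59.9, 56.5 and 71.3 CPM in WT Low and 68.5, 67.9 and 66.9 CPM in TG Low, a log2 difference of 0.12, against -0.55 in the High gate (edgeR adjusted p of the difference = 1). Clec2d, a ligand of NK cell receptors, had 0.23 in the Low gate and -0.57 in the High gate. Helb, a DNA helicase, had 0.18 in the Low gate and -0.37 in the High gate. On the other side Dip2a had -0.52 in the Low gate and 0.34 in the High gate, Zmym4 -0.14 and 0.28, and Zcchc24 -0.35 and 0.19. None of these 6 passed, and for Zmym4 the Low value changed sign without the libraries numbered 1.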

How the data were processed

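The values are counts of reads per gene, deposited by the authors as 1 table of 21839 Ensembl genes by 12 libraries. The tools listed, per the submitters' processing notes, are featureCounts 1.4.6, STAR 2.4 and CASAVA 1.8.2, with the build GRCm38 and without settings. The kits named in the labels do not mark strand, so reads of antisense or overlapping neighbours may be counted together. Symbols came from GENCODE M21 (21628 genes matched, 211 did not).

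Counts were scaled by TMM, filtered with filterByExpr (11766 genes, 99.96% of counts) and tested with edgeR 4.0.16 (R 4.3.3): quasi-likelihood, robust, all 12 libraries, 4 groups plus replicate number as a block, Benjamini-Hochberg threshold 0.05. The block was used because same-numbered libraries of all groups correlated at 0.34 to 0.83 (18 pairs), against -0.688 to 0.197 for different numbers (36 pairs). These are correlations of deviations from group means, so the values for different numbers are partly set by the centring. What a number stands for is not stated, so the pairing is a hint from the data and not a stated design. The SEs and p-values of this fit draw on the spread in both gates. It had no term for an animal shared by a Low and a High library. If such libraries share animals, the SEs and p-values may be too small. The other fits used DESeq2 1.42.0, other scalings and filters, and left libraries out. The fitting procedure was also run on simulated data, with added differences larger than most of those reported here. That run does not test how well such small differences are found.

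The members, gene lists and the block were chosen with earlier results of these data known. Named genes are those given always (Atg5, Il2ra, Foxp3, Icos, Ctla4), the 10 of smallest p in each direction (the higher group averaging 10 CPM or more, same sign in all pairs, no predicted symbols), members of smallest p from each of 36 lists, and 3 per direction for the difference of effects. From those eligible, the ones described were picked after their values were seen, and genes outside the rule are named as such. Counts per pair used a pseudocount of 0.1 CPM. Of 143 eligible genes, 98 had a RefSeq promoter window, and Hsp90ab1 had none. Neutrophil and mitochondrially encoded genes had no tested member. A few genes that met the rule are not reported here.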

Additional observations from a re-analysis of the deposited data

How the results depend on the processing

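In the CD25 Low comparison, 0 genes were called under most settings, and every gene called under any was higher in TG. DESeq2 with the replicate block called 2 (list members: 1), the fit of the 6 Low libraries with the replicate block 3 (list members: 2), and the fit without the 4 libraries numbered 2, chosen after seeing the data, 6 (list members: 5, with 1152 genes at an unadjusted p under 0.05). Leaving out single libraries gave 0 to 2 (list members: 0 to 1), the 2 being Hsp90ab1 and Gm4951 without the WT High library numbered 2. Without the replicate block, 0 were called and 48 had an unadjusted p under 0.05, against 382 with it, and on the 6 Low libraries without it 30. The difference between gates gave 0 calls in each of its 22 other fits, with a smallest adjusted p of 0.72. Of 1724 gene values over the settings, 1713 kept direction and side of the threshold, 5 newly passed it (Hsp90ab1 and Hsph1) and 6 changed sign, all in Il2ra, Ctla4 and Zmym4. Some of these genes were named for having the same sign in all 3 pairs, which limits reversals, and 0 genes passed in the main fit. The count is therefore no test of robustness. For Il2ra the value was -0.0095 with library totals only, -0.0166 without the libraries numbered 1 and -0.0763 to 0.1004 leaving out single libraries. For Ctla4 it was -0.027 to 0.2465 leaving out single libraries, and for Zmym4 0.0037 without the libraries numbered 1. Library totals alone moved the median of all genes from 0.0041 to -0.0196 and left 43.4% of genes positive against 51.5%. The cause of these changes was not tested. With 3 libraries a group, an exact permutation test of 1 gene that ignores the pairing cannot go below 0.1. One that keeps the pairing has a higher floor. The edgeR and DESeq2 fits do not have this floor but rest on a model of the spread. How small a difference of a single gene they would miss is not reported here.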
